A study of Homo sapiens with 11 samples.

Results

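Solute carriers are membrane proteins that move amino acids, nucleosides, vitamins, sugars, metals and other small solutes into, out of and within cells. The genes described here are the 135 solute carrier genes counted above a level limit in MOLM-13, a human cell line of acute myeloid leukemia that carries a KMT2A rearrangement. They were chosen from 328 genes whose symbol is SLC, a family number, the letter A and a member number, as those whose mean over the libraries was at least 5 CPM, which is the count scaled to a common library total. Besides the 328, 10 genes matched the symbol but were set aside by the rule, namely SLC7A11, SLC30A1, SLC39A8, SLC39A10, SLC40A1, SLC48A1, SLC2A1, SLC2A3, SLC16A1 and SLC16A3. By substrate, 33 of 48 candidate mitochondrial carriers reached that level, as did 15 of 28 metal carriers, 22 of 58 amino acid and peptide carriers, 8 of 24 sugar carriers and 10 of 53 carriers of organic cations, anions and amines. Of 18 candidates annotated on more than 1 contig, 16 lay below the limit and 13 of the 18 below 1 CPM, among them SLC25A6 at 0, SLC39A7 at 0.00684 CPM and SLC43A2 at 0.279 CPM. Fragments that map to several places were not counted, so expressed carriers of this kind can be missing from the 135 and from the class counts. The count table holds 38557 annotated genes, of which 10039 reached the same level.

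RNA was sequenced from MOLM-13 cells kept for 72 h in DMSO, the solvent, in MI-503 at 1 µM, or in MI-503 at 1 µM plus PR-957 at 100 nM, here called the combination. MI-503 blocks the binding of Menin to KMT2A, and PR-957 (ONX-0914) inhibits PSMB8, a catalytic subunit of the immunoproteasome. There were 4 DMSO libraries, 4 MI-503 libraries and 3 combination libraries, numbered 1, 2 and 4. All came from 1 cell line, none received PR-957 alone, and the labels do not say whether libraries of a group came from separate cultures, so p-values measure the spread between these libraries, which may be technical.

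As background, each solute carrier family is defined by sequence, and families differ in substrate, in what drives the transport and in the membrane they occupy. Carriers of the plasma membrane bring nutrients into the cell, carriers of the lysosome return the products of digestion to the cytosol, and the SLC25 family links the cytosol to the mitochondrial matrix. Leukemic blasts take up amino acids and nucleosides for protein and nucleic acid synthesis, and the large neutral amino acid exchanger SLC7A5, its partner SLC3A2 and the glutamine carrier SLC1A5 are among the best studied carriers of dividing blood cells.

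Libraries held 18891243 to 41153974 counts, and at the lowest depth 3 counts correspond to 0.159 CPM. Combination replicate 1 stood apart from combination replicates 2 and 4. Chi-square per degree of freedom over all genes was 19.4 and 33.3 for its pairs, against 4.59 for replicates 2 and 4 and 1.72 to 5.97 within the other groups. In no library was any of the 135 genes over 2-fold off the mean of the other libraries of its group. The median absolute log2 deviation from that mean was 0.157 in combination replicate 1, 0.132 in combination replicate 4 and 0.0520 to 0.0946 in the others. Of 10 myeloid blast markers, 8 were over 1 CPM, and their summed level was 1556 to 1642 CPM in DMSO, 1823 to 1955 CPM in MI-503 and 1706 to 2081 CPM in the combination. CEBPA was the largest part of the sum, at 734 to 802, 869 to 979 and 900 to 1177 CPM in these groups. Other markers of the list went the other way. FLT3 was at 309 to 333, 228 to 233 and 174 to 219 CPM, and MEIS1 at 52.3 to 54.6, 18.7 to 22.7 and 12.5 to 23.7 CPM. KIT and ANPEP lay near 0. The summed T cell, erythroid and fibroblast markers stayed at or below 1.06 CPM in every library, with the T cell marker CD2 at 0, and of the B cell list MS4A1 was at 0 while PAX5 was expressed. Of 4 epithelial markers, 2 (KRT8 and KRT18) were over 1 CPM, summing to 37.7 to 44.9 CPM in DMSO, 34.5 to 37.2 CPM in MI-503 and 24.5 to 35.2 CPM in the combination. In a bulk sample fewer cells with a transcript and less transcript per cell cannot be told apart.

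Levels of different genes were compared as CPM per kilobase of exon. In DMSO, the highest level was that of SLC25A5, an adenine nucleotide translocase of the inner mitochondrial membrane, at 356 ± 5.51 CPM per kb (SD, n = 4). SLC1A5 followed at 132 ± 8.7, the mitochondrial phosphate carrier SLC25A3 at 115 ± 2.83 and SLC7A5 at 103 ± 6.45 CPM per kb, and of these SLC25A3 and SLC7A5 differed by little more than their spread. The length used is that of all annotated exons, 1307 bases for SLC25A5 and 6404 for SLC25A3. By counts alone SLC25A3 was above SLC25A5. Transcripts can be shorter than this length, so the order depends on it. The mitochondrial citrate carrier SLC25A1, at 83.9 ± 4.31, and SLC3A2, at 82.9 ± 7.88 CPM per kb, did not differ beyond their spread. Next came the equilibrative nucleoside transporter SLC29A1 at 65.1 ± 1.99 CPM per kb and the purine nucleobase transporter SLC43A3 at 55.7 ± 1.88 CPM per kb. In the combination the order was another, with SLC7A5 at 40.4 ± 5.91, SLC3A2 at 70.2 ± 11.2 and SLC29A1 at 29.2 ± 4.52 CPM per kb (SD, n = 3). The genes just above the limit, by their mean unscaled level, were SLC46A3 at 5.88 CPM, SLC44A2 at 6.14 CPM and SLC2A14 at 6.47 CPM, and those just below it were SLC16A13 at 4.81 CPM, SLC8A1 at 4.59 CPM and SLC7A7 at 4.54 CPM. SLC11A1, a phagosomal metal carrier of macrophages, stood at 1.28 CPM and was not among the 135.

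**Figure D1:**
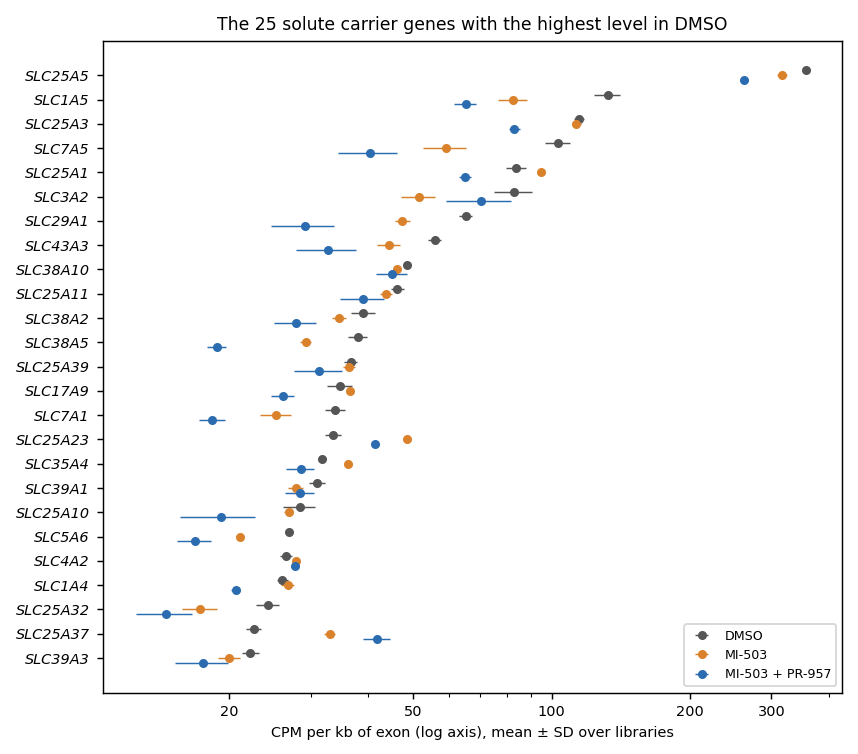
CPM per kb of exon on a log axis for the 25 solute carrier genes with the highest mean in DMSO. Points are group means and bars are SD over 4 DMSO, 4 MI-503 and 3 combination libraries. SLC7A5, SLC1A5 and SLC29A1 lie lowest in the combination, while SLC25A37 lies highest there.

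The windows before the start of 6 of these genes are shown because the same letters stand before genes that moved in opposite directions in the combination against DMSO. In that comparison the call of SLC3A2 was lost under 7 alternatives, and SLC3A2 and SLC26A1 both rose in the combination against MI-503. Promoter windows of RefSeq (GRCh38.p14, 250 bases before to 50 after the start, the first listed start of each gene) were matched by symbol for 111 of the 135 genes. The E-box CACGTG was found in 19 of them (17.1%) against 7.43% of all 27305 windows, the antioxidant response element core TGACNNNGC in 22 (19.8%) against 13.6%, and the C/EBP-ATF response element core TGATGNAA in 7 (6.31%) against 3.67%. The 27305 windows include genes of any level, while the 111 are of genes above the limit, so the 2 sets are unlike. Both strands were searched, and overlaps between motifs were allowed. Capitals mark the E-box in the first 4 windows and the antioxidant response element core in the last 2, and each window of 80 bases ends before the start. By the annotation of the count files the first 4 lie in no gene, that of SLC3A2 lies in an intron of SLC3A2, before a start inside the gene, and that of SLC26A1 lies in an intron of IDUA.
SLC7A5 (chr16:87869595-87869674, minus strand): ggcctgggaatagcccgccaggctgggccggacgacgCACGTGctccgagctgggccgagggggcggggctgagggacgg
SLC29A1 (chr6:44219365-44219444, plus strand): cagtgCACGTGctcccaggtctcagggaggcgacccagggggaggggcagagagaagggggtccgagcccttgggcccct
SLC38A5 (chrX:48470424-48470503, minus strand): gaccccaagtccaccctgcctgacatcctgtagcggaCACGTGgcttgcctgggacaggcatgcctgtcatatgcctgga
SLC22A4 (chr5:132294144-132294223, plus strand): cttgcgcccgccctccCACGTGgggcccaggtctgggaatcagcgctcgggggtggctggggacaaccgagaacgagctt
SLC3A2 (chr11:62881619-62881698, plus strand): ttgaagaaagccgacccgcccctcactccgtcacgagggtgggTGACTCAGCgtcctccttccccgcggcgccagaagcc
SLC26A1 (chr4:993443-993522, minus strand): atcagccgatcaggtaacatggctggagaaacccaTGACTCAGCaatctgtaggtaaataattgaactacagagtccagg
Of the 19 genes with an E-box, 7 were higher and 10 lower in the combination than in DMSO, and of all 111 with a window 44 were higher and 44 lower. Of the 22 with the antioxidant response element core, 4 were higher and 13 lower in MI-503 than in DMSO, while 10 were higher and 7 lower in the combination than in MI-503. Over the 111 genes these counts were 34 higher and 35 lower in the first comparison, and 37 higher and 33 lower in the second. A match of letters is a description and was not tested.

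Between MI-503 and DMSO, 45 of the 135 genes were higher and 41 lower at an edgeR adjusted p under 0.05 (quasi-likelihood test, Benjamini-Hochberg over all tested genes). This was 63.7% of the carriers, where 51.4% of all 14683 tested genes and 62.1% of the 10039 genes at the same level were called. Of those 10039 genes 23.2% were higher and 38.9% lower, and of the carriers 33.3% and 30.4%. With a stricter filter on low counts the carriers divided into 55 higher and 33 lower, and with upper-quartile scaling into 54 and 33. Shares over all genes are not given for these settings, so those counts do not show a lean particular to the carriers. The median log2 fold change of the carriers was -0.00059, against -0.07 over genes at the same level. At least 2-fold changes were few, with 5 genes higher and 1 lower, which was 4.44% of the carriers, 5.56% of all tested genes and 2.67% of genes at the same level. SLC2A14, among the 5, had an unscaled mean of 3.13 CPM in DMSO and reached the level limit through the treated groups.

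In the combination against DMSO, 56 carriers were higher and 54 lower, or 81.5%, where 64.5% of all tested genes and 73.5% of genes at the same level were called, the latter as 31.6% higher and 41.9% lower. Changes of at least 2-fold numbered 10 higher and 9 lower, which was 14.1% of the carriers, 11.9% of all tested genes and 7.03% of genes at the same level. Among the 10 were SLC38A6, SLC46A3 and SLC2A14, which lay below the level limit in DMSO and reached it through treated groups. In the combination against MI-503, 45 were higher and 42 lower, or 64.4%, against a background of 47.4% and, at the same level, 57.3% (26.9% higher and 30.5% lower). Rises of 2-fold or more were called there in 4 genes (2.96% of the carriers, against 4.47% of all tested genes and 1.86% at the same level). SLC38A6 and SLC46A3 were among the 4, with unscaled means in MI-503 of 5.49 and 4.14 CPM and in the combination of 14.4 and 10.9 CPM. They reached the level limit through the groups where they were higher, so this count partly follows from the limit. No carrier was called lower by 2-fold or more there by edgeR, DESeq2 or limma-voom (0 genes by each). Without combination replicate 1 the counts were 62 higher and 54 lower against DMSO, and 44 higher and 43 lower against MI-503, with no shares over all genes given for that fit. The comparisons share their DMSO or MI-503 libraries, so they are not independent of each other.

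The carriers together took 0.842% to 0.864% of all counts in the DMSO libraries, 0.816% to 0.839% in MI-503 and 0.757% to 0.820% in the combination. DMSO did not overlap with the other groups, and MI-503 and the combination overlapped. The share in MI-503 minus that in DMSO was -0.0293 percentage points (exact permutation test over libraries, two-sided p = 0.0286, the smallest that 4 against 4 allows, adjusted over 3 comparisons 0.0857). The combination minus DMSO was -0.0590 points (exact p = 0.0571, the smallest possible, adjusted 0.0857) and the combination minus MI-503 was -0.0297 points (exact p = 0.171, adjusted 0.171), and without combination replicate 1 these differences were -0.0395 and -0.0102 points.

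By substrate, the calls divided as follows, where genes at the same level leaned to lower themselves (23.2% higher and 38.9% lower in MI-503, and 31.6% and 41.9% in the combination, against DMSO). In the combination against MI-503, 26.9% of genes at the same level were higher and 30.5% lower. Of the 4 vitamin carriers 3 were lower in each comparison, of the 15 metal carriers 9 (60.0%) were lower and 2 higher in MI-503 than in DMSO, and of the 8 sugar carriers 5 (62.5%) were higher than DMSO under each treatment. Of the amino acid carriers 36.4% were higher and 36.4% lower in MI-503 than in DMSO. Among the 33 mitochondrial carriers 17 (51.5%) were lower and 10 (30.3%) higher in the combination than in DMSO. The plot of fold changes by class shows these distributions. The classes were described and not compared by a test.

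**Figure D2:**
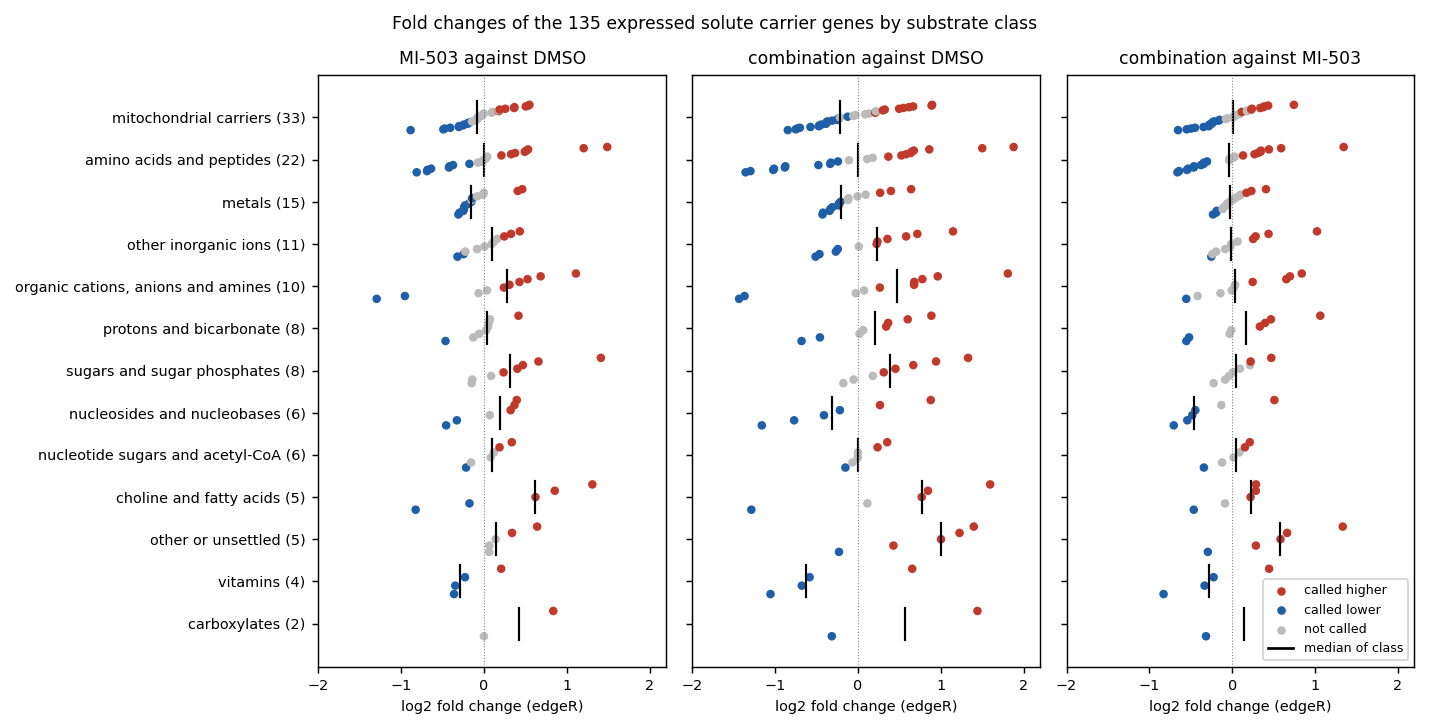
Log2 fold change from edgeR (horizontal axis) of each of the 135 genes, by substrate class with the number of genes in parentheses, in the 3 comparisons. Red points were called higher, blue lower and grey not called, and the black line is the median of the class. Amino acid carriers ran from -1.36 to 1.88 in the combination against DMSO, and carriers of organic cations, anions and amines from -1.44 to 1.81.

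Amino acid and peptide carriers counted 22 genes, of which 8 were higher and 8 lower in MI-503 than in DMSO, 9 higher and 10 lower in the combination than in DMSO, and 8 higher and 10 lower in the combination than in MI-503. The last were 36.4% and 45.5% of the class, beside 26.9% and 30.5% of genes at the same level. The summed level of the class was 2771 ± 96.3 CPM in DMSO (SD, n = 4), 2168 ± 91.3 CPM in MI-503 (n = 4) and 1919 ± 103 CPM in the combination (n = 3). SLC7A5 and SLC1A5, with the highest counts of the class, fell, while SLC38A10, next in counts, was at 257 ± 4.81, 245 ± 4.14 and 239 ± 18.4 CPM and not called in any comparison. SLC38A10 was called in the combination against DMSO with limma-voom and when combination replicate 4 was left out. The median log2 fold change of the class was near 0 in each comparison, at 0.0025, 0.00028 and -0.04.

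SLC7A5, the exchanger for leucine and other large neutral amino acids, is at chr16:87830022-87869507, minus strand (hg38, as are all coordinates). It was counted at 589, 507, 564 and 559 CPM in DMSO replicates 1 to 4, at 274, 301, 341 and 347 CPM in MI-503 replicates 1 to 4 and at 181, 226 and 243 CPM in combination replicates 1, 2 and 4, and values below follow the same order. No library of one group overlapped with another, every MI-503 library was below every DMSO library, and every combination library was lower still. Its log2 fold change was -0.81 (SE 0.08) in MI-503 against DMSO (edgeR adjusted p = 5.07e-07), -1.36 (SE 0.09) in the combination against DMSO (edgeR adjusted p = 1.42e-09) and -0.55 (SE 0.09) in the combination against MI-503 (edgeR adjusted p = 1.12e-04).

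SLC3A2 (chr11:62856109-62888860, plus strand) encodes the heavy chain that joins SLC7A5 in the membrane. It was at 238, 196, 243 and 238 CPM in DMSO, 128, 136, 155 and 149 CPM in MI-503 and 158, 211 and 212 CPM in the combination. MI-503 libraries were below all others, and combination replicates 2 and 4 lay between DMSO replicate 2 and the other DMSO libraries. On the log2 scale SLC3A2 changed by -0.69 (SE 0.09) in MI-503 against DMSO (edgeR adjusted p = 5.97e-06) and rose in the combination against MI-503 by 0.44 (SE 0.09) (edgeR adjusted p = 9.72e-04), a comparison in which SLC7A5 fell. In the combination against DMSO it was -0.24 (SE 0.09) (edgeR adjusted p = 0.0327), a call that was lost under 7 alternatives. Among them were leaving out combination replicate 1 (log2 fold change -0.09, edgeR adjusted p = 0.242), leaving out DMSO replicate 1, 3 or 4, and the stricter filter.

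SLC1A5 (chr19:46774883-46788594, minus strand), which exchanges glutamine and other neutral amino acids, was at 444, 379.5, 418 and 429 CPM in DMSO, 238, 252, 278 and 273 CPM in MI-503 and 195, 203 and 217 CPM in the combination. The 3 groups did not overlap. It fell by a log2 fold change of -0.68 (SE 0.06) in MI-503 and -1.02 (SE 0.06) in the combination against DMSO, and -0.34 (SE 0.06) between the treated groups (edgeR adjusted p = 5.04e-08, 3.80e-10 and 2.42e-04). In SLC7A5, SLC3A2, SLC1A5 and the cationic amino acid carrier SLC7A1, replicate 1 had the lowest value of the MI-503 group and replicate 1 the lowest of the combination.

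The sodium-coupled glutamine carriers SLC38A1, SLC38A2 and SLC38A5 fell as well. SLC38A6 and SLC38A7 of the same family, given below, rose in the combination. SLC38A1 (chr12:46183063-46269149, minus strand) was at 184, 182, 170.0 and 192 CPM in DMSO, 110.4, 115, 120.2 and 121 CPM in MI-503 and 87.5, 69.8 and 63.3 CPM in the combination, without overlap between groups. Its log2 fold change was -0.64 (SE 0.07) in MI-503 and -1.3 (SE 0.08) in the combination against DMSO, and -0.66 (SE 0.08) between them (edgeR adjusted p = 1.62e-06, 4.87e-10 and 4.88e-06). SLC38A5, whose window with an E-box is shown above, went from 88.9 ± 4.07 CPM to 68.5 ± 1.73 and 44 ± 2.07 CPM (SD, n = 4, 4 and 3), with log2 fold changes against DMSO of -0.37 (SE 0.04) and -1.01 (SE 0.05). SLC38A2 was at 187 ± 11.5, 166 ± 6.18 and 134 ± 14 CPM, and its log2 fold change of -0.48 (SE 0.06) in the combination against DMSO was called, whereas that of -0.18 (SE 0.06) in MI-503 against DMSO lost its call under 5 alternatives, among them leaving out DMSO replicate 1 or 4 or MI-503 replicate 2. The cationic amino acid carriers SLC7A1 and SLC7A2 had nearly the same fold changes, -0.42 (SE 0.06) and -0.42 (SE 0.06) in MI-503 and -0.88 (SE 0.06) and -0.88 (SE 0.07) in the combination against DMSO, all called. The small neutral amino acid exchanger SLC1A4 and the facilitated carrier SLC43A1 were not called in MI-503 against DMSO but fell in the combination against MI-503, with log2 fold changes of -0.38 (SE 0.04) and -0.34 (SE 0.05). Under 3 alternatives, among them the stricter filter, SLC1A4 was called in MI-503 against DMSO.

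Other carriers of amino acids and peptides rose. SLC15A2, a proton-coupled peptide carrier of the plasma membrane at chr3:121894401-121944188, plus strand, was at 5.3, 6.52, 4.6 and 5.22 CPM in DMSO, 17.5, 15.9, 14.2 and 13.1 CPM in MI-503 and 17, 15.1 and 13.6 CPM in the combination. Both treated groups lay above DMSO and overlapped with each other. It had the largest rise of all 135 genes in MI-503 against DMSO, 1.49 (SE 0.12) on the log2 scale (edgeR adjusted p = 2.29e-08), with 1.5 (SE 0.12) in the combination against DMSO and 0.01 (SE 0.11) between the treated groups, which was not called. The glutamate and aspartate carrier SLC1A3 was at 7.39, 8.4, 7.96 and 9.11 CPM in DMSO, 18.4, 17.8, 20.4 and 18.9 CPM in MI-503 and 10.2, 13 and 16.2 CPM in the combination, so that the 3 groups did not overlap and the combination lay in between. Its log2 fold change was 1.2 (SE 0.12) in MI-503 against DMSO and -0.53 (SE 0.12) in the combination against MI-503 (edgeR adjusted p = 2.65e-07 and 0.00143).

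Carriers known from the lysosomal membrane were looked at together after their values had been seen, so they are given without a test of the group. SLC15A4, a histidine and peptide carrier of the endolysosome, was at 41, 45.4, 40.5 and 41.4 CPM in DMSO, 60.6, 63, 56.2 and 60 CPM in MI-503 and 62.4, 80.6 and 87 CPM in the combination, with combination replicate 1 inside the range of MI-503. SLC66A1, which exports cationic amino acids, was at 71 ± 2.71, 89.1 ± 1.86 and 110.4 ± 4.65 CPM, and its log2 fold change was 0.33 (SE 0.04) in MI-503 against DMSO and 0.31 (SE 0.04) in the combination against MI-503, both called. SLC36A1, a proton-coupled carrier of small amino acids, rose by 0.38 (SE 0.06) in MI-503 against DMSO, and its rise of 0.27 (SE 0.07) in the combination against MI-503 lost its call without combination replicate 4. SLC38A7, a glutamine carrier, was not called in MI-503 against DMSO and rose by 0.59 (SE 0.07) in the combination against MI-503 (edgeR adjusted p = 5.72e-06). SLC15A3 rose by 0.49 (SE 0.08) in MI-503 against DMSO and was at 0.03 in the combination against MI-503, not called. For SLC38A9, an arginine sensor of the lysosome, the call in MI-503 against DMSO (log2 fold change 0.21 (SE 0.08)) was lost under 5 alternatives that each left out 1 library.

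SLC38A6 (chr14:60981114-61083733, plus strand), a less studied member of the same family as SLC38A1, had the largest rise of the 135 genes in the combination. It was at 4.15, 3.9, 3.37 and 3.75 CPM in DMSO, 5.18, 5.72, 5.57 and 5.52 CPM in MI-503 and 16.3, 12.3 and 13.1 CPM in the combination. Every combination library was more than 2-fold above every MI-503 library. The log2 fold change was 1.88 (SE 0.11) against DMSO (edgeR adjusted p = 2.53e-10) and 1.35 (SE 0.11) against MI-503 (edgeR adjusted p = 3.18e-08), and 0.53 (SE 0.12) in MI-503 against DMSO. It passed the level limit through the treated groups, since its unscaled mean was 3.68 CPM in DMSO.

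**Figure D3:**
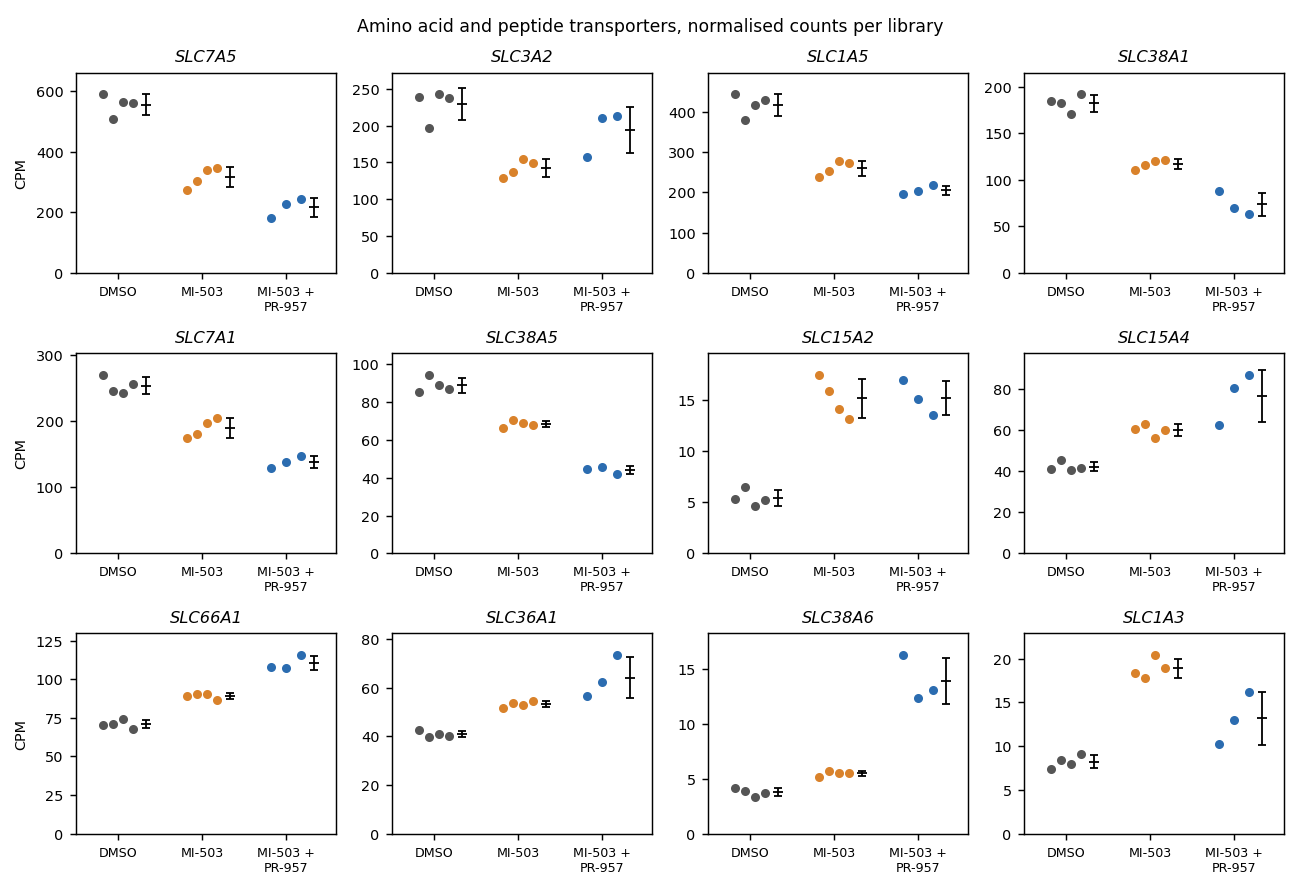
Normalised counts (CPM, from 0) of 12 amino acid and peptide carriers in each library of DMSO, MI-503 and MI-503 + PR-957. Points are libraries, and black bars are the group mean ± SD (n = 4, 4 and 3). SLC7A5, SLC1A5, SLC38A1, SLC7A1 and SLC38A5 step down from group to group, and SLC38A6 lies over 12 CPM only in the combination.

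Among the 6 carriers of nucleosides and nucleobases, 3 were higher and 2 lower in MI-503 than in DMSO, while 4 were lower in the combination than in either other group. Those 4 were 66.7% of the class, where 41.9% (against DMSO) and 30.5% (against MI-503) of genes at the same level were lower. SLC29A1 (chr6:44219587-44234144, plus strand), the main equilibrative nucleoside transporter and a known route of entry for the drug cytarabine, was at 214, 201, 201 and 202 CPM in DMSO, 145, 144, 155 and 152 CPM in MI-503 and 78, 90.5 and 106 CPM in the combination. The groups did not overlap. It fell, with a log2 fold change of -0.46 (SE 0.07), in MI-503 and -1.16 (SE 0.07) in the combination against DMSO, with -0.71 (SE 0.07) between them (edgeR adjusted p = 2.25e-05, 6.21e-10 and 9.00e-07). SLC43A3 went from 162 ± 5.47 to 129 ± 7.44 and 95.2 ± 14.3 CPM, with log2 fold changes of -0.33 (SE 0.07) and -0.77 (SE 0.08) against DMSO. A second equilibrative transporter, SLC29A2, was at 71.7, 80.4, 77.2 and 75.8 CPM in DMSO, 97, 98.5, 94.6 and 91.1 CPM in MI-503 and 70.5, 66 and 59.6 CPM in the combination. It rose in MI-503 against DMSO by 0.32 (SE 0.05) on the log2 scale and fell in the combination against MI-503, with a log2 fold change of -0.54 (SE 0.06), to a level below DMSO (-0.22 (SE 0.06)), all called. The vesicular nucleotide carrier SLC17A9 was not called in MI-503 against DMSO and fell, with a log2 fold change of -0.48 (SE 0.05), in the combination against MI-503. Under 4 alternatives, among them the stricter filter, it was called in MI-503 against DMSO. The lysosomal nucleoside carrier SLC29A3 rose in each comparison, by 0.37 (SE 0.09), 0.88 (SE 0.09) and 0.51 (SE 0.09).

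Of the 4 vitamin carriers, 3 fell. SLC19A1, the reduced folate carrier, was at 134 ± 8.31, 104 ± 9.83 and 89.3 ± 14 CPM, and its log2 fold change was -0.36 (SE 0.08) and -0.59 (SE 0.09) against DMSO. Its call of -0.22 (SE 0.09) in the combination against MI-503 was lost under 7 alternatives. Among them were leaving out combination replicate 1 (log2 fold change -0.13, edgeR adjusted p = 0.138), DMSO replicate 1, 3 or 4, or MI-503 replicate 3 or 4. SLC5A6, which takes up biotin and pantothenate, fell, with log2 fold changes of -0.35 (SE 0.05) and -0.68 (SE 0.05) against DMSO. The thiamine carrier SLC19A2 was at 17.6, 17.5, 15.6 and 18.1 CPM in DMSO, 15.1, 14.6, 15.8 and 13.3 CPM in MI-503 and 7.67, 8.82 and 8.51 CPM in the combination. The combination stood apart below both other groups, which overlapped. SLC19A2 had the largest fall of the 135 genes in the combination against MI-503, at -0.83 (SE 0.09) on the log2 scale (edgeR adjusted p = 8.35e-07). Its change of -0.23 (SE 0.08) in MI-503 against DMSO was called in the fit of all 11 libraries. That call was lost under 4 alternatives, namely the stricter filter, upper-quartile scaling, and leaving out DMSO replicate 4 or MI-503 replicate 4. The ascorbate carrier SLC23A2 rose instead, by 0.21 (SE 0.04) in MI-503 and 0.65 (SE 0.05) in the combination against DMSO.

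The carriers of organic cations, anions and amines held some of the largest moves in both directions, with 6 of 10 higher and 2 lower than DMSO under each treatment. SLC6A8 (chrX:153687926-153696593, plus strand), the creatine transporter, was at 16.8, 18.6, 25.6 and 17 CPM in DMSO, 7.54, 7.32, 8.54 and 8.35 CPM in MI-503 and 8.42, 6.32 and 6.43 CPM in the combination. All treated libraries lay below all DMSO libraries, of which replicate 3 was the highest. It was the 1 gene that fell at least 2-fold in MI-503 against DMSO, at -1.3 (SE 0.13) on the log2 scale (edgeR adjusted p = 3.80e-07), with -1.44 (SE 0.14) in the combination against DMSO. Of its exon windows 12.1% recur elsewhere in the genome, so reads from near-identical copies may be missing. SLC22A23, a carrier of unknown substrate, was at 23.2, 36, 23.9 and 24.3 CPM in DMSO, 14.1, 13.8, 13.7 and 13.8 CPM in MI-503 and 13.6, 10.2 and 6.73 CPM in the combination. DMSO replicate 2 was above the other DMSO libraries, and the combination libraries ranged over 2-fold. It fell, with log2 fold changes of -0.95 (SE 0.16) and -1.37 (SE 0.18) against DMSO. Between the treated groups the log2 fold change was -0.42 (SE 0.18), not called (edgeR adjusted p = 0.0714). It was called under 4 alternatives, among them replicate number as a block (-0.45, edgeR adjusted p = 0.0418) and leaving out combination replicate 1 (-0.77, edgeR adjusted p = 5.15e-04).

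SLC22A4 (chr5:132294384-132344199, plus strand), a carrier of ergothioneine and organic cations whose window with an E-box is shown above, was at 6.21, 5.83, 6.68 and 6.45 CPM in DMSO, 14.2, 14.7, 12.3 and 13 CPM in MI-503 and 16.6, 23.3 and 26.8 CPM in the combination. The 3 groups did not overlap and rose in this order. The log2 fold change was 1.11 (SE 0.13) and 1.81 (SE 0.13) against DMSO and 0.70 (SE 0.12) between the treated groups (edgeR adjusted p = 2.32e-06, 3.41e-09 and 1.81e-04). SLC22A15 rose, with log2 fold changes of 0.43 (SE 0.06) and 0.68 (SE 0.06) against DMSO, and its rise of 0.25 (SE 0.06) in the combination against MI-503 lost its call without combination replicate 2. The taurine carrier SLC6A6 rose, with log2 fold changes of 0.68 (SE 0.07) and 0.68 (SE 0.07) against DMSO, but 57.8% of its exon bases are shared with GRIP2, and fragments there were not counted for either gene. SLC17A5, which exports sialic acid from the lysosome, was at 19.8 ± 0.896, 24.4 ± 1.34 and 38.6 ± 4.54 CPM and rose by 0.65 (SE 0.07) in the combination against MI-503 (edgeR adjusted p = 2.09e-06). SLC10A7 was not called in MI-503 against DMSO and rose by 0.84 (SE 0.09) in the combination against MI-503. SLC16A9 rose by 0.53 (SE 0.06) in MI-503 against DMSO and fell, with a log2 fold change of -0.55 (SE 0.07), in the combination against MI-503, at 19.2 ± 0.684, 27.6 ± 1.44 and 18.7 ± 1.3 CPM. SLC10A3 was not called in any comparison by edgeR, at 21.8 ± 0.258, 22.3 ± 0.764 and 23 ± 2.89 CPM, and was called higher in the combination against DMSO without combination replicate 1 (0.20, edgeR adjusted p = 0.00905).

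Carriers of choline and fatty acids counted 5 genes, of which 3 were higher and 2 lower in MI-503 than in DMSO. SLC44A1 (chr9:105244605-105439775, plus strand), a choline carrier of the plasma membrane, was at 24, 22.3, 25.2 and 23.3 CPM in DMSO, 56.7, 59.7, 59.7 and 58.7 CPM in MI-503 and 55.3, 69.9 and 90.3 CPM in the combination. The lowest treated library was more than 2-fold above the highest DMSO library, and combination replicate 1 lay below all MI-503 libraries while replicates 2 and 4 lay above them. The rise was 1.31 (SE 0.11) in MI-503 and 1.59 (SE 0.11) in the combination against DMSO (edgeR adjusted p = 3.91e-08 and 1.93e-09), whereas that of 0.29 (SE 0.11) between the treated groups lost its call under 8 alternatives, falling to 0.04 without combination replicate 4. SLC44A2, counted among the 3, rose, with log2 fold changes of 0.86 (SE 0.16) and 0.77 (SE 0.17) against DMSO. It passed the level limit through the treated groups, with unscaled means of 4.0 CPM in DMSO, 7.5 in MI-503 and 7.2 in the combination. SLC27A2, which takes up and activates long and very long chain fatty acids, was at 31.1, 31.2, 29.3 and 29.2 CPM in DMSO, 17.9, 17.2, 16.9 and 16.3 CPM in MI-503 and 12.4, 14 and 10.9 CPM in the combination, with no overlap between groups. It fell, with log2 fold changes of -0.82 (SE 0.07) and -1.29 (SE 0.08) against DMSO, while SLC27A1 of the same family rose, with log2 fold changes of 0.62 (SE 0.06) and 0.84 (SE 0.06), all called. SLC27A4 was called lower in MI-503 against DMSO (-0.17 (SE 0.06)), a call lost under 11 alternatives. Of the 2 carboxylate carriers, SLC16A5 was at 15.4 ± 1.28, 27.4 ± 1.03 and 41.6 ± 5.64 CPM and rose in each comparison, and SLC16A7, a carrier of pyruvate and lactate, fell, with a log2 fold change of -0.32 (SE 0.10), in the combination against MI-503.

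Of the 8 carriers of sugars and sugar phosphates, 5 were higher in MI-503 than in DMSO and 5 in the combination than in DMSO, and edgeR called 0 lower in either comparison. At an unadjusted p under 0.05 edgeR put 1 of them lower in each, DESeq2 called 0 lower in each, and limma-voom called 0 lower in MI-503 and 1 in the combination. The sugar phosphate carrier SLC37A2 was at 35.6, 56, 38.5 and 35.8 CPM in DMSO, 61.2, 63.5, 54.8 and 49.3 CPM in MI-503 and 72.3, 91.9 and 75.2 CPM in the combination. DMSO replicate 2 lay inside the range of MI-503, and the combination lay above both groups. It rose, with log2 fold changes of 0.47 (SE 0.12) and 0.94 (SE 0.13) against DMSO, and the rise of 0.47 (SE 0.13) between the treated groups lost its call without combination replicate 2. SLC2A14, a glucose transporter, was at 2.67, 4.64, 3.32 and 2.28 CPM in DMSO, 9.67, 8.8, 8.05 and 7.61 CPM in MI-503 and 10.3, 6.42 and 6.95 CPM in the combination, and rose, with log2 fold changes of 1.41 (SE 0.19) and 1.33 (SE 0.20) against DMSO. Its value is uncertain because 22.5% of its exon windows recur elsewhere in the genome, and it passed the level limit through the treated groups. The urate carrier SLC2A9 rose, with log2 fold changes of 0.66 (SE 0.07) and 0.67 (SE 0.08) against DMSO. The fructose carrier SLC2A5 rose by 0.40 (SE 0.09) in MI-503 against DMSO, and in the combination it was at 0.18 (SE 0.10), not called. That change was called under 5 alternatives, among them the stricter filter and leaving out combination replicate 1. SLC50A1, at 23.2 ± 1.96, 20.9 ± 0.855 and 22.3 ± 1.06 CPM, was not called in any comparison, and was called lower in MI-503 against DMSO without DMSO replicate 4 (-0.21, edgeR adjusted p = 0.0112).

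Metal carriers counted 15 genes, most of them zinc carriers, with log2 fold changes between -0.43 and 0.64. In MI-503 against DMSO 9 were lower and 2 higher, and in the combination against DMSO 8 were lower and 3 higher. The medians were -0.15 and -0.21 on the log2 scale, and between the treated groups -0.03. The calls of SLC30A6, SLC39A1 and SLC41A1 in MI-503 against DMSO were lost under the stricter filter and under upper-quartile scaling, and that of SLC30A6 under 15 alternatives in all. SLC39A1 and SLC39A3, the metal carriers with the highest level per kb, had log2 fold changes against DMSO of -0.15 (SE 0.05) and -0.12 (SE 0.05), the second not called, and of -0.15 (SE 0.07), not called, and -0.34 (SE 0.07). Without DMSO replicate 2 both of the values not called were called, at -0.14 and -0.18 (edgeR adjusted p = 0.0321 and 0.0426). SLC31A1, the high-affinity copper importer, was at 63.3, 52.8, 60.2 and 62.2 CPM in DMSO, 45.1, 46.7, 50.5 and 50.4 CPM in MI-503 and 40.7, 42 and 51 CPM in the combination. Both treated groups lay below DMSO, and the log2 fold changes were -0.31 (SE 0.07) and -0.42 (SE 0.08). SLC39A14, an importer of zinc and iron, fell, with log2 fold changes of -0.24 (SE 0.05) and -0.43 (SE 0.05) against DMSO, and the zinc carriers SLC30A5 and SLC30A9 were at -0.24 (SE 0.04) and -0.33 (SE 0.05) in the combination against DMSO, both called. SLC39A11 and SLC39A13 rose, by 0.46 (SE 0.05) and 0.41 (SE 0.08) in MI-503 and by 0.40 (SE 0.05) and 0.64 (SE 0.09) in the combination. The iron and manganese carrier SLC11A2 was at 24.7 ± 1.61, 24.4 ± 1.2 and 26.2 ± 2.17 CPM and was not called in any comparison. Under the stricter filter and under upper-quartile scaling it was called in the combination against DMSO.

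Among 11 carriers of other inorganic ions, 3 were higher and 2 lower in MI-503 than in DMSO, and 6 higher and 4 lower in the combination than in DMSO. SLC26A1 (chr4:979073-993404, minus strand), a sulfate carrier whose window with TGACNNNGC is shown above, was at 5.63, 6.02, 6.02 and 4.98 CPM in DMSO, 6.11, 6.71, 6.23 and 5.52 CPM in MI-503 and 10.6, 14.4 and 12.9 CPM in the combination. DMSO and MI-503 overlapped, and every combination library lay above both. It rose by 1.02 (SE 0.11) in the combination against MI-503 (edgeR adjusted p = 1.39e-06) and by 1.15 (SE 0.11) against DMSO, with 0.12 (SE 0.11) in MI-503 against DMSO, not called. The anion exchanger SLC26A6 rose, with log2 fold changes of 0.43 (SE 0.05) and 0.72 (SE 0.06) against DMSO. The potassium and chloride cotransporter SLC12A4 rose by 0.36 (SE 0.07) in the combination against DMSO, while SLC12A2, which also carries sodium, fell, with a log2 fold change of -0.51 (SE 0.08). SLC12A9 rose by 0.25 (SE 0.04) and 0.23 (SE 0.05) on the log2 scale against DMSO. The phosphate importer SLC20A1 fell, with log2 fold changes of -0.25 (SE 0.06) and -0.27 (SE 0.07) against DMSO.

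The 8 carriers of protons and bicarbonate were mostly not called in MI-503 against DMSO, with 1 higher and 1 lower, and in the combination against DMSO 4 were higher and 2 lower. Of these 4, SLC4A8 had an unscaled mean of 4.98 CPM in DMSO and SLC4A11 one of 4.97 CPM in MI-503, below the level limit. SLC4A11 was at 6.85, 7.03, 6.87 and 6.69 CPM in DMSO, 5.41, 5.14, 4.37 and 4.95 CPM in MI-503 and 9.06, 11.1 and 11.2 CPM in the combination. The groups did not overlap, with MI-503 below DMSO and the combination above it. It fell, with a log2 fold change of -0.46 (SE 0.10), in MI-503 against DMSO (edgeR adjusted p = 0.00105) and rose by 1.06 (SE 0.10) in the combination against MI-503 (edgeR adjusted p = 3.76e-07). The sodium and proton exchanger SLC9A8 was not called in MI-503 against DMSO and rose by 0.33 (SE 0.05) in the combination against MI-503. The sodium and bicarbonate carrier SLC4A7 fell, with a log2 fold change of -0.52 (SE 0.10), in the same comparison. SLC9A3 fell, with a log2 fold change of -0.55 (SE 0.09), there too, but 37.2% of its exon bases are shared with another gene. The anion exchanger SLC4A2, at 153 ± 4.72, 161 ± 3.2 and 160.2 ± 3.28 CPM, was not called in any comparison by edgeR with all 11 libraries. It was called in MI-503 against DMSO under 8 alternatives, among them DESeq2, and in the combination against DMSO under 2.

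**Figure D4:**
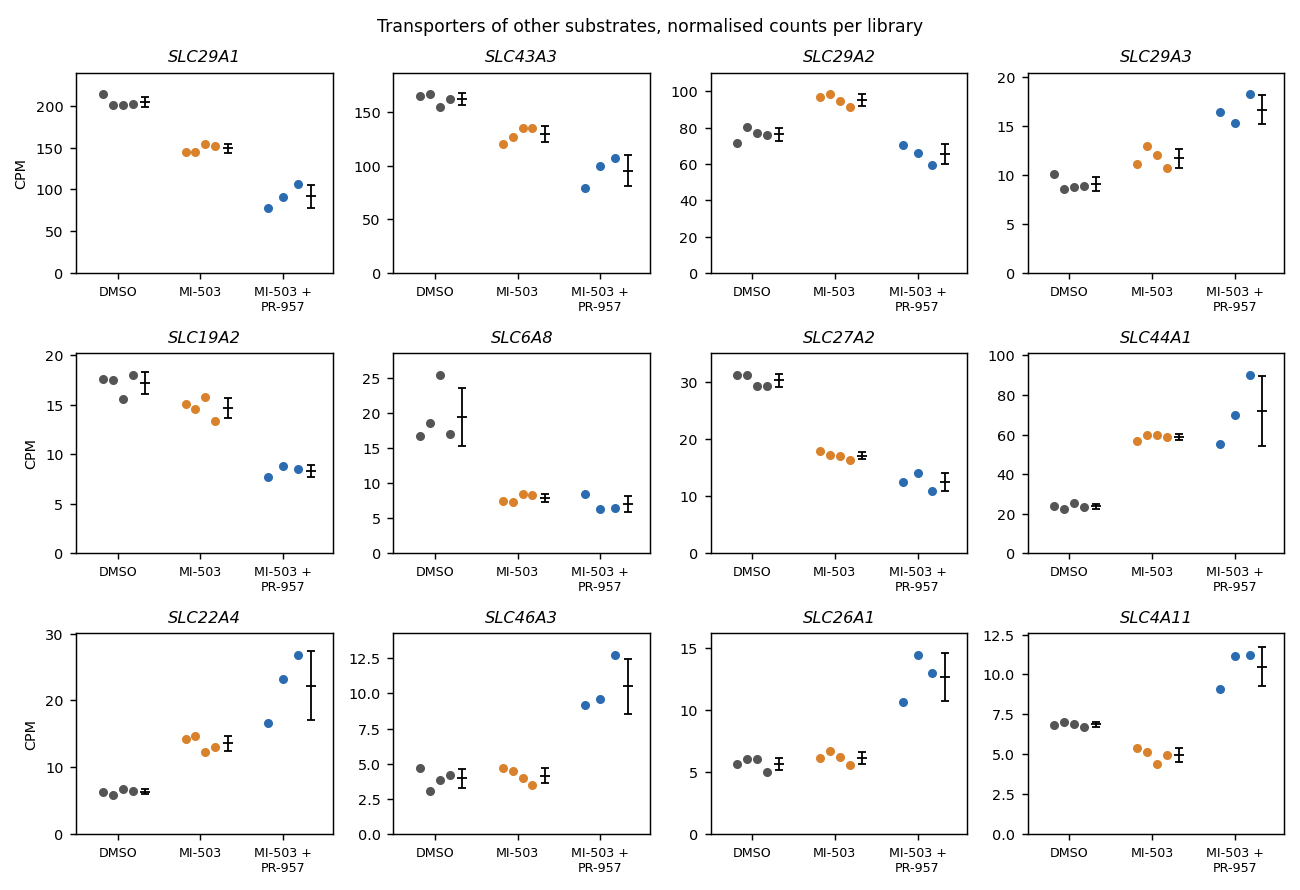
Normalised counts (CPM, from 0) of 12 carriers of other substrates in each library of DMSO, MI-503 and MI-503 + PR-957. Points are libraries, and black bars are the group mean ± SD (n = 4, 4 and 3). SLC29A1 and SLC27A2 step down, SLC22A4 steps up, and SLC46A3 and SLC26A1 are high only in the combination.

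The mitochondrial carriers were the largest class, with 33 genes. In MI-503 against DMSO 8 were higher and 11 lower, in the combination against DMSO 10 and 17, and in the combination against MI-503 8 and 14. The last were 24.2% and 42.4% of the class, beside 26.9% and 30.5% of genes at the same level. SLC25A3 and SLC25A5, with the highest counts of the class, fell in the combination, and SLC25A37, next in counts, rose. SLC25A3, which brings phosphate for ATP synthesis into the matrix, was at 745, 707, 741 and 742 CPM in DMSO, 718, 717, 747 and 718 CPM in MI-503 and 548, 523 and 522 CPM in the combination. DMSO and MI-503 overlapped and the combination lay below both, so that its log2 fold change was -0.02 (SE 0.04) in MI-503 against DMSO, not called, and -0.45 (SE 0.04) in the combination against MI-503 (edgeR adjusted p = 2.12e-07). SLC25A5, which exchanges ADP and ATP, was at 474, 456, 466 and 464 CPM in DMSO, 409, 409.8, 429 and 407 CPM in MI-503 and 347, 333 and 344 CPM in the combination, and fell, with log2 fold changes of -0.17 (SE 0.04) and -0.44 (SE 0.04) against DMSO. The second ADP and ATP exchanger, SLC25A4, was at 19.3 ± 0.843, 10.5 ± 0.852 and 12 ± 1.91 CPM and fell, with log2 fold changes of -0.89 (SE 0.09) and -0.70 (SE 0.10) against DMSO.

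SLC25A1 (chr22:19175575-19178863, minus strand), which exports citrate for fatty acid and sterol synthesis, moved in both directions. It was at 162, 162, 175 and 154 CPM in DMSO, 185, 183, 189 and 181 CPM in MI-503 and 123, 125 and 130.4 CPM in the combination. The groups did not overlap. The log2 fold change was 0.18 (SE 0.04) in MI-503 against DMSO and -0.55 (SE 0.05) in the combination against MI-503 (edgeR adjusted p = 0.00168 and 6.02e-08). Of the carriers of amino acids, the ornithine carrier SLC25A15 was at -0.19 in MI-503 and -0.85 (SE 0.04) in the combination against DMSO, and the aspartate and glutamate carrier SLC25A13 at -0.41 and -0.75 (SE 0.06). The other aspartate and glutamate carrier, SLC25A12, was called higher in both, at 0.19 (SE 0.06) and 0.21 (SE 0.07), the first call being lost without DMSO replicate 2. The dicarboxylate carrier SLC25A10 was not called in MI-503 against DMSO and fell, with a log2 fold change of -0.50 (SE 0.09), in the combination against MI-503. SLC25A32, which carries folate and flavin cofactors, fell, with log2 fold changes of -0.49 (SE 0.07) and -0.74 (SE 0.08) against DMSO.

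Other mitochondrial carriers rose. SLC25A37, mitoferrin, which brings iron into the mitochondria, was at 181 ± 6.89, 265 ± 7.81 and 335 ± 22.9 CPM, with log2 fold changes of 0.55 (SE 0.05) and 0.89 (SE 0.05) against DMSO. Its paralog SLC25A28 was at 0.09 (SE 0.06) and 0.13 (SE 0.07), not called. It was called under 4 alternatives in each of these comparisons, among them the combination against DMSO without combination replicate 1 (0.26, edgeR adjusted p = 1.42e-04). SLC25A29, a carrier of basic amino acids, rose, with log2 fold changes of 0.50 (SE 0.04) and 0.89 (SE 0.05), with 30.3% of its exon bases shared with another gene. The carnitine and acylcarnitine carrier SLC25A20, needed for fatty acid oxidation, was at 8.2, 5.74, 7.39 and 6.97 CPM in DMSO, 7.35, 6.59, 6.02 and 7.0 CPM in MI-503 and 10.4, 10.8 and 12.7 CPM in the combination. Only the combination was set apart, and it rose by 0.75 (SE 0.11) against MI-503 (edgeR adjusted p = 4.94e-05). The coenzyme A carrier SLC25A42 and the carrier of branched-chain amino acids SLC25A44 also rose in the combination against MI-503, by 0.43 (SE 0.09) and 0.38 (SE 0.06), and neither was called in MI-503 against DMSO. SLC25A42 was called in MI-503 against DMSO under 5 alternatives, among them the stricter filter. The calcium-regulated ATP-Mg and phosphate carrier SLC25A23 rose by 0.53 (SE 0.04) in MI-503 against DMSO and fell, with a log2 fold change of -0.23 (SE 0.04), in the combination against MI-503, with 16.9% of its exon windows recurring elsewhere in the genome.

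**Figure D5:**
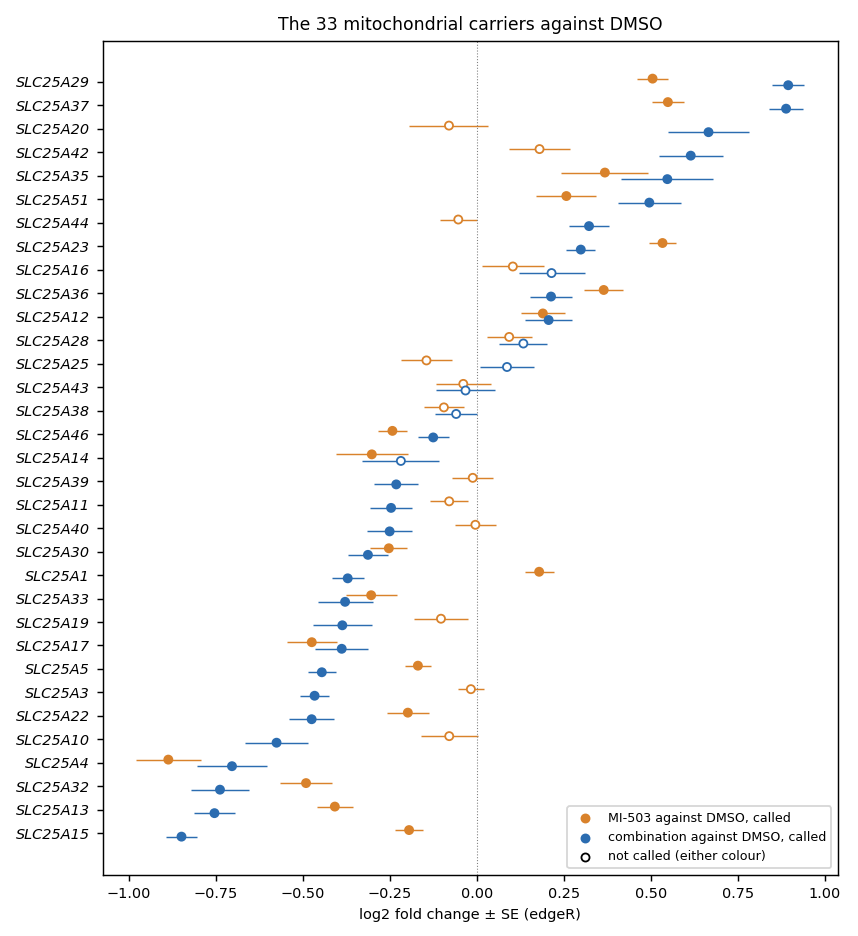
Log2 fold change ± SE from edgeR (horizontal axis) of the 33 mitochondrial carriers in MI-503 (orange) and the combination (blue) against DMSO, ordered by the latter. Filled points were called and open points were not. SLC25A15 is lowest in the combination, and SLC25A1 is above 0 in MI-503 and below 0 in the combination.

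The 6 carriers of nucleotide sugars and acetyl-CoA had log2 fold changes between -0.34 and 0.35. Of the SLC35 family only symbols with the letter A fit the rule, and genes with other letters are counted below with the other symbols. In the combination against DMSO 2 were higher and 1 lower. SLC33A1, which carries acetyl-CoA into the endoplasmic reticulum, rose, with log2 fold changes of 0.34 (SE 0.06) and 0.35 (SE 0.07) against DMSO. SLC35A4 rose by 0.19 (SE 0.04) in MI-503 against DMSO and fell, with a log2 fold change of -0.34 (SE 0.05), in the combination against MI-503. Its call of -0.15 (SE 0.05) in the combination against DMSO was lost under 4 alternatives, among them leaving out combination replicate 1 (log2 fold change -0.09, edgeR adjusted p = 0.102). The Golgi carriers of UDP-galactose and UDP-N-acetylglucosamine, SLC35A2 and SLC35A3, were not called in the combination against DMSO, and the CMP-sialic acid carrier SLC35A1 was called higher at 0.24 (SE 0.06).

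Of the 5 genes with other or unsettled substrates, 4 rose in the combination against DMSO. SLC46A3, a lysosomal carrier, was at 4.69, 3.03, 3.84 and 4.22 CPM in DMSO, 4.67, 4.47, 3.96 and 3.48 CPM in MI-503 and 9.18, 9.57 and 12.8 CPM in the combination. DMSO and MI-503 overlapped, and each combination library was well above both. SLC46A3 passed the level limit through the combination, with unscaled means of 3.83 CPM in DMSO, 4.14 in MI-503 and 10.9 in the combination. The log2 fold change was 1.33 (SE 0.15) against MI-503 and 1.4 (SE 0.15) against DMSO (edgeR adjusted p = 1.45e-06 and 2.92e-07), and 0.06 (SE 0.15) in MI-503 against DMSO, not called. SLC45A3 and SLC45A4 rose, with log2 fold changes of 1.23 (SE 0.10) and 1.0 (SE 0.08) in the combination against DMSO, from 13.3 ± 1.11 and 69.1 ± 2.9 CPM in DMSO to 31.3 ± 5.07 and 139 ± 19.7 CPM. SLC66A2 fell, with a log2 fold change of -0.29 (SE 0.05), in the combination against MI-503, and the rise of SLC66A3 there (0.29 (SE 0.11)) was lost under 14 alternatives, among them replicate number as a block (0.29, edgeR adjusted p = 0.0628).

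Solute carriers that do not have a symbol of this form were listed beside them from general knowledge, and 62 of 65 were tested. In MI-503 against DMSO 14 were higher and 19 lower, in the combination against DMSO 25 and 22, and in the combination against MI-503 21 and 11. These are 53.2%, 75.8% and 51.6% of them, beside 51.4%, 64.5% and 47.4% of all tested genes. Without combination replicate 4 the lower count in the last comparison was 18. SFXN1, which carries serine into mitochondria, fell, with log2 fold changes of -0.52 (SE 0.05) and -1.11 (SE 0.05) against DMSO, and UCP2, an uncoupling protein, rose by 0.54 (SE 0.05) in MI-503 against DMSO and fell, with a log2 fold change of -0.47 (SE 0.05), in the combination against MI-503. Of 13 partners and regulators of solute carriers, 2 were higher and 5 lower in MI-503 than in DMSO, and 3 higher and 7 lower in the combination than in DMSO, or 53.8% and 76.9% of them. The count of 2 was 1 without DMSO replicate 1, 3 or 4 or MI-503 replicate 1, 2 or 4. EMB, embigin, a chaperone of monocarboxylate carriers, fell, with log2 fold changes of -0.57 (SE 0.05) and -1.11 (SE 0.05), whereas the related BSG, at 733 ± 23.8, 709 ± 15.1 and 691 ± 132 CPM, was not called in any comparison. WNK1, a kinase that regulates chloride cotransporters, fell, with log2 fold changes of -1.2 (SE 0.04) and -1.13 (SE 0.05).

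Some carriers are uncertain because of how fragments were counted. By the counting command in the file headers, fragments that overlapped exons of several genes or mapped to several places had been left out, without regard to strand. Over 20% of exon bases were shared with another gene in 7 of the 135 genes (SLC30A7, SLC6A6, SLC7A6, SLC24A1, SLC9A3, SLC66A3 and SLC25A29), and over 10% of exon windows recurred elsewhere in the genome in 4 (SLC2A14, SLC25A23, SLC25A33 and SLC6A8). SLC12A7 and SLC9A3 are annotated on more than 1 contig. In 6 of the 135 genes at least 1 group lay below 5 CPM, namely SLC2A14, SLC4A8, SLC46A3, SLC38A6, SLC44A2 and SLC4A11, so that their place among the genes rests on the groups in which they were higher.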

How the data were processed

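RNA libraries (TruSeq RNA kit) from 11 samples had been sequenced, and the authors deposited raw fragment counts for every gene, not normalised. Per the labels and file headers, the authors used Trimmomatic 0.39, STAR 2.7.10a and featureCounts 2.0.1 on exons of the hg38 RefSeq annotation, unstranded. The joined count table differed from the single libraries in 0 cells. The authors' tables of log2 fold changes and p-values, from DESeq2, were not used.

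Software was edgeR 4.0.16, DESeq2 1.42.0 and limma 3.58.1 under R 4.3.3, with Python 3.11.15 (pandas 2.3.3, numpy 2.4.6, scipy 1.17.1, matplotlib 3.10.9). Of all genes, 14683 passed filterByExpr (minimum count 10, minimum total 15), all 135 carriers among them. An edgeR model of group means held the 11 libraries, with TMM factors of 0.956 to 1.06, and each contrast had a two-sided quasi-likelihood test adjusted after Benjamini and Hochberg across the tested genes. The biological coefficient of variation was 6.14%, with 8 residual degrees of freedom, and the fit was tested on simulated data. A gene was called, and said to rise or fall, at an adjusted p under 0.05. CPM are relative to TMM-scaled totals, and SE is that of the log2 fold change. Depth of 18891243 to 41153974 counts and 3 or 4 libraries a group limit the precision. Promoter windows on chromosome 8 were not searched. Some genes counted in the totals are not reported here by name. Recurrence was searched with minimap2 2.31 in exon windows of 150 bases with at most 2 differences.

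Carriers, classes and lists were chosen with earlier results of these data known. Genes were named by rule as the 8 largest rises and the 8 largest falls of each comparison among called genes without overlap, the 2 genes with the highest CPM per kb in DMSO of each class, and SLC3A2, SLC7A5, SLC1A5, SLC38A2, SLC15A3, SLC15A4, SLC25A5 and SLC11A1, which lay below the level limit (53 carriers in all without it). Of these the carriers that the results turn on have per-library values, and the others group values or fold changes. Other genes named were chosen as examples after their values had been seen. Same-numbered MI-503 and combination libraries had r of 0.141, 0.149 and 0.211 over genes. Their pairs with unlike numbers had r from -0.274 to 0.269, so these values do not settle whether the number pairs the libraries. The fit with a replicate block is given where it changes a call of that comparison. Same-numbered libraries of DMSO and the treated groups had r from -0.252 to 0.286. Their pairs with unlike numbers had r from -0.314 to 0.317, so pairing is not settled there either. Alternatives were RLE and upper-quartile factors, 2 other filters, DESeq2, limma-voom, a fit of the 2 groups compared, a replicate block, an adjusted p under 0.01, level limits of 2 and 10 CPM, and each library left out in turn.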

Additional observations from a re-analysis of the deposited data

Results flagged for a closer look

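In groups of 4 libraries, the highest or lowest value of 53 carriers was compared with the rest by Dixon's ratio, and 12 of 106 group tests exceeded its critical value. Chance flags about 1 in 20 groups. DMSO replicate 2 was the library that stood off in 5 of them. It was highest for SLC22A23 at 36.0 CPM (others 23.2 to 24.3 CPM) and SLC37A2 at 56.0 CPM (others 35.6 to 38.5 CPM), and lowest for SLC3A2 at 196 CPM (others 238 to 243 CPM), SLC25A3 at 707 CPM (others 741 to 745 CPM) and SLC39A3 at 82.1 CPM (others 89.0 to 90.1 CPM). In DMSO the other values that stood off were those of SLC29A1 in replicate 1 at 214 CPM (others 201 to 202 CPM), SLC16A9 in replicate 3 at 18.2 CPM (others 19.4 to 19.6 CPM) and SLC50A1 in replicate 4 at 20.3 CPM (others 23.8 to 24.4 CPM). In MI-503 they were SLC15A3 in replicate 1 at 29.7 CPM (others 32.4 to 32.9 CPM), SLC22A23 in replicate 1 at 14.1 CPM (others 13.7 to 13.8 CPM), and SLC25A3 at 747 CPM (others 717 to 718 CPM) and SLC25A5 at 429 CPM (others 407 to 409.8 CPM) in replicate 3. The combination, with 3 libraries, was not examined in this way.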

How the results depend on the processing

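No call of a carrier turned direction under any alternative, and the counts of carriers called higher or lower stayed within 1.5 times of those reported in each. Over the alternatives that left out no library, 40 to 55 were higher and 33 to 44 lower in MI-503 against DMSO, 45 to 64 and 49 to 56 in the combination against DMSO, and 35 to 48 and 35 to 46 in the combination against MI-503. Leaving out 1 library gave 42 to 54 and 35 to 42, 55 to 62 and 53 to 56, and 32 to 45 and 38 to 44. Shares over all genes are not given for these alternatives, and the cause of the shifts was not tested.

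The median log2 fold change of the carriers lay near 0 and moved by more than the spread between libraries under several settings. In MI-503 against DMSO it was 0.0265 with DESeq2, 0.0267 with RLE factors, 0.0187 with no filter, 0.0464 with only the 2 groups compared, 0.0697 with the stricter filter, 0.0621 with upper-quartile factors and 0.0265 for carriers of at least 2 CPM. In the combination against DMSO it was 0.0333 with no filter, 0.0274 with only the 2 groups compared, 0.0228 with the replicate block, 0.0803 with the stricter filter, 0.0781 with upper-quartile factors, 0.0678 for carriers of at least 2 CPM and -0.0433 for those of at least 10 CPM. In the combination against MI-503 it was -0.0251 for carriers of at least 10 CPM. Leaving out 1 library gave medians of -0.00706 to 0.0435, 0.0102 to 0.0397 and -0.0495 to 0.00288 in the 3 comparisons.

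At an adjusted p under 0.01, 1 partner gene was higher in MI-503 against DMSO and 3 were lower in the combination against MI-503, and leaving out 1 library gave 1 to 3 and 3 to 5. Carriers with other symbols called lower in the combination against MI-503 numbered 9 to 18 when 1 library was left out, with 18 without combination replicate 4. The summed share in MI-503 against DMSO differed by -0.0336 to -0.0259 percentage points when 1 library was left out, where the smallest possible p is 0.0571. With the replicate block the carriers divided into 45 higher and 42 lower in MI-503 against DMSO, 56 and 54 in the combination against DMSO, and 41 and 43 in the combination against MI-503, where SLC25A46, SLC25A51, SLC2A13, SLC66A3 and SLC7A6 lost and SLC22A23 and SLC5A3 gained a call. In MI-503 against DMSO the check does not settle whether the numbers pair the samples, and with the block 1 call was lost and 2 gained.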
